A study of Mus musculus with 12 samples.

Results

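The CSF1 receptor axis and related cytokine receptors were examined as 8 genes of the 56735 in the count table. The members were chosen by role, with earlier results of these data known. They are Csf1r, the receptor that BLZ945 inhibits; Csf1 and Il34, its ligands; Csf2ra, Csf2rb and Csf2rb2, chains of the GM-CSF receptor and its relatives; Csf3r, the G-CSF receptor; and Tyrobp, a signalling adaptor. RNA was sequenced in bulk from sorted CD206+ sdCAMs, that is, subdural macrophages associated with the central nervous system that line its vessels and leptomeninges; choroid plexuses had been removed from the mouse brains. Mice carried both copies of a Cre inducible by tamoxifen at Mrc1 (Mrc1CreERT2/CreERT2) and of a tdTomato (tdT) reporter that Cre switches on (R26tdT/tdT), so Cre activity was limited to cells that use Mrc1, and all of them, controls included, received tamoxifen 4 weeks before treatment. Treatment lasted 7 days, with vehicle or with BLZ945 at a dose of 200 mg per kg, and collection followed 8 weeks after its end. There were 3 groups of 4 libraries, namely tdT+ cells of vehicle mice, tdT+ cells of BLZ945 mice and tdT- cells of those same BLZ945 mice. Libraries carry the mouse labels F1, F2, M1 and M2, and the age of the mice is not given in the labels. The label tdT- covers any CD206+ cell without the reporter, whether it arose from an unlabelled source or escaped recombination. Vehicle and BLZ945 libraries come from different mice, and their names carry different prefixes (pre and Post) that the labels do not explain, so treatment and whatever the prefix marks cannot be told apart in any comparison with vehicle.

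CSF1R is a receptor tyrosine kinase on which macrophages and microglia depend for survival, and CSF1 and IL-34 are its ligands. GM-CSF signals through a specific alpha chain, encoded by Csf2ra, and the common beta chain, encoded by Csf2rb, which is shared with the receptors of IL-3 and IL-5. Mice carry an additional beta chain, encoded by Csf2rb2, that works with the IL-3 receptor. G-CSF acts through CSF3R, best known from neutrophils and their precursors. TYROBP, also called DAP12, carries an ITAM, a motif that recruits the kinase SYK, and passes on signals from receptors such as TREM2. PU.1, encoded by Spi1, is an ETS-family transcription factor that directs myeloid genes, receptors of this family among them.

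RefSeq promoter windows, 250 bases before to 50 bases after the gene start on GRCm38.p6, were found for 4 of the 8 members, Csf3r, Csf2ra, Csf2rb2 and Csf1. They are shown because DESeq2 called Spi1 higher in tdT- against BLZ945 tdT+ cells, as described further on. That call did not hold in edgeR (adjusted P = 0.140), and Spi1 was not called against vehicle. Any part of Spi1 in the differences of these members was not tested. The letters GAGGAAG, the core of a common PU.1 site, were searched on both strands after the windows had been seen. The letters occurred once in the window of Csf3r, in 2 copies overlapping by a single base in that of Csf2ra, in 2 copies on the other strand in that of Csf2rb2, and not in that of Csf1. Of 32851 windows of this length, leaving out 1 chromosome, 13.6% held them. Capitals mark the matches, and each sequence runs 5′ to 3′ on the strand of the gene (Csf3r on the plus strand, chr4:126024409-126024708; Csf2ra on the minus strand, chr19:61228369-61228668). For Csf2rb2, whose window is chr15:78305672-78305971 on the minus strand, a stretch around the match farther upstream is given. A match describes the letters and is not a measured binding site.
Csf3r: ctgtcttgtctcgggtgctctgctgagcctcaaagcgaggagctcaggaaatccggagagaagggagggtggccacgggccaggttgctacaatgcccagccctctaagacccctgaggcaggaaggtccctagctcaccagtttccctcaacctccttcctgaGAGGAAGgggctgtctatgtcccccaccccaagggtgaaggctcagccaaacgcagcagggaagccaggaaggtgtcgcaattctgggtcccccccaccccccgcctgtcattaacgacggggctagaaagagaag
Csf2ra: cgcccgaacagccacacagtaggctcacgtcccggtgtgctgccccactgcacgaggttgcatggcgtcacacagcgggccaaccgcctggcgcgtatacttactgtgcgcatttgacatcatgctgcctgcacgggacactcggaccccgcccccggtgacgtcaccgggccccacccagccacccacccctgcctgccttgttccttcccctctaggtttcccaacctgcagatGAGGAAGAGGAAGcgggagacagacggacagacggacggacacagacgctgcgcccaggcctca
Csf2rb2: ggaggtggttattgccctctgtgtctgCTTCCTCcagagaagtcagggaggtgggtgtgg

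Libraries held between 19969308 and 23395058 counts, and 13724 genes passed the filter on low counts, 7 of the 8 members among them. Il34 did not pass. Markers of sdCAMs were abundant in every group, but the groups were not of equal makeup. The summed normalised count of 7 CNS-associated macrophage markers (Mrc1, Pf4, Ms4a7, Cbr2, Lyve1, Cd163 and Apoe) lay between 871502 and 945776 in vehicle tdT+, between 1017244 and 1168350 in BLZ945 tdT+ and between 616480 and 831502 in tdT- libraries. Most of this sum was Apoe, with between 564416 and 1011493 normalised counts per library. DESeq2 called all 7 markers lower in tdT- against BLZ945 tdT+ cells, by log2 fold changes between -2.81 and -0.45, and 6 lower against vehicle. Between the tdT+ groups, 2 were called higher and 1 lower after BLZ945. The sum of 6 microglia markers (P2ry12, Tmem119, Siglech, Sall1, Sparc and Gpr34) lay between 37768 and 51480 in vehicle tdT+, between 55248 and 62425 in BLZ945 tdT+ and between 120633 and 275502 in tdT- libraries. All 6 microglia markers were called higher by DESeq2 in tdT- cells against either tdT+ group, and none was at 0 in any library. The tdT- library F2 stood apart, with a summed count of 445179 over 9 neutrophil markers (S100a8, S100a9, Camp, Ngp, Ltf, Lcn2, Retnlg, Cxcr2 and Mmp8), against between 0.92 and 93.9 in the other 11 libraries. The sum of 6 monocyte markers (Ly6c2, Ccr2, Plac8, Chil3, Vcan and Fn1) was 51170 in that library, between 3078 and 6817 in the other tdT- libraries and between 877 and 3963 in tdT+ libraries, and DESeq2 called Ccr2 higher in tdT- cells against either tdT+ group and Ly6c2 against BLZ945. The sum of 3 astrocyte markers lay between 1198 and 2517 in tdT- and between 228 and 1219 in tdT+ libraries, with Aqp4 called higher against BLZ945 and Slc1a3 against vehicle. Of 4 dendritic cell markers tested, Zbtb46 was called lower against either group and Ccr7 higher against BLZ945, and the T or NK cell marker Nkg7 was called higher against BLZ945. Ly6c2, Aqp4, Ccr7 and Nkg7 had 0 counts in every BLZ945 tdT+ library, and few tdT- libraries carried their calls. In tdT- libraries of F1, F2, M1 and M2, Ly6c2 had 259, 3420, 0 and 0 normalised counts and Aqp4 168, 180, 0 and 433. Ccr7 had 1046, 0, 0 and 451, and Nkg7 had 0, 680, 0 and 54.5. No neutrophil, fibroblast, neuron, oligodendrocyte, red blood cell or B cell marker was called in tdT- cells against either group, and no endothelial marker passed the filter. Only 1 of 9 neutrophil, 3 of 5 fibroblast and 2 of 3 B cell markers were tested, so the others could not be called. Beyond the values given with each result, the part of these cell types was not tested. The reporter could not check the sort, since tdTomato was counted in 0 libraries. In bulk libraries fewer cells of a type and less RNA per cell cannot be told apart, and this touches every difference below.

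Levels were first set side by side per length, as RPKM (reads per kilobase of exon, scaled to library size). Exon lengths merge all transcripts of a gene. For Csf2rb this gave 7277 bases, against 4900 in its longest transcript in the GENCODE M21 annotation. The RPKM of Csf2rb, its separation from neighbours and ratios built on it depend on that choice of length. Tyrobp and Csf1r were among the most abundant transcripts of sdCAMs in each group, and the remaining members lay far below. In vehicle tdT+ cells Tyrobp reached 2774 ± 162 RPKM (SD, n = 4), place 16 among the tested genes, and Csf1r 1375 ± 116, place 26. Csf2ra followed with 42.3 ± 4.71, Csf3r with 26.9 ± 5.99 and Csf2rb with 12.7 ± 2.47. Csf2rb2 was lower, at 4.29 ± 0.387, and Csf1 lower still, at 2.23 ± 0.814. The same order of mean levels held in all 3 groups, with Il34 last. Neighbours in this order had separate ranges over the 4 libraries in vehicle cells. In BLZ945 tdT+ cells the exception was Csf2rb2 and Csf1, whose ranges overlapped, and in tdT- cells these and also Csf2ra and Csf3r, at 52.3 ± 6.55 and 49.7 ± 19.4 RPKM.

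**Figure D1:**
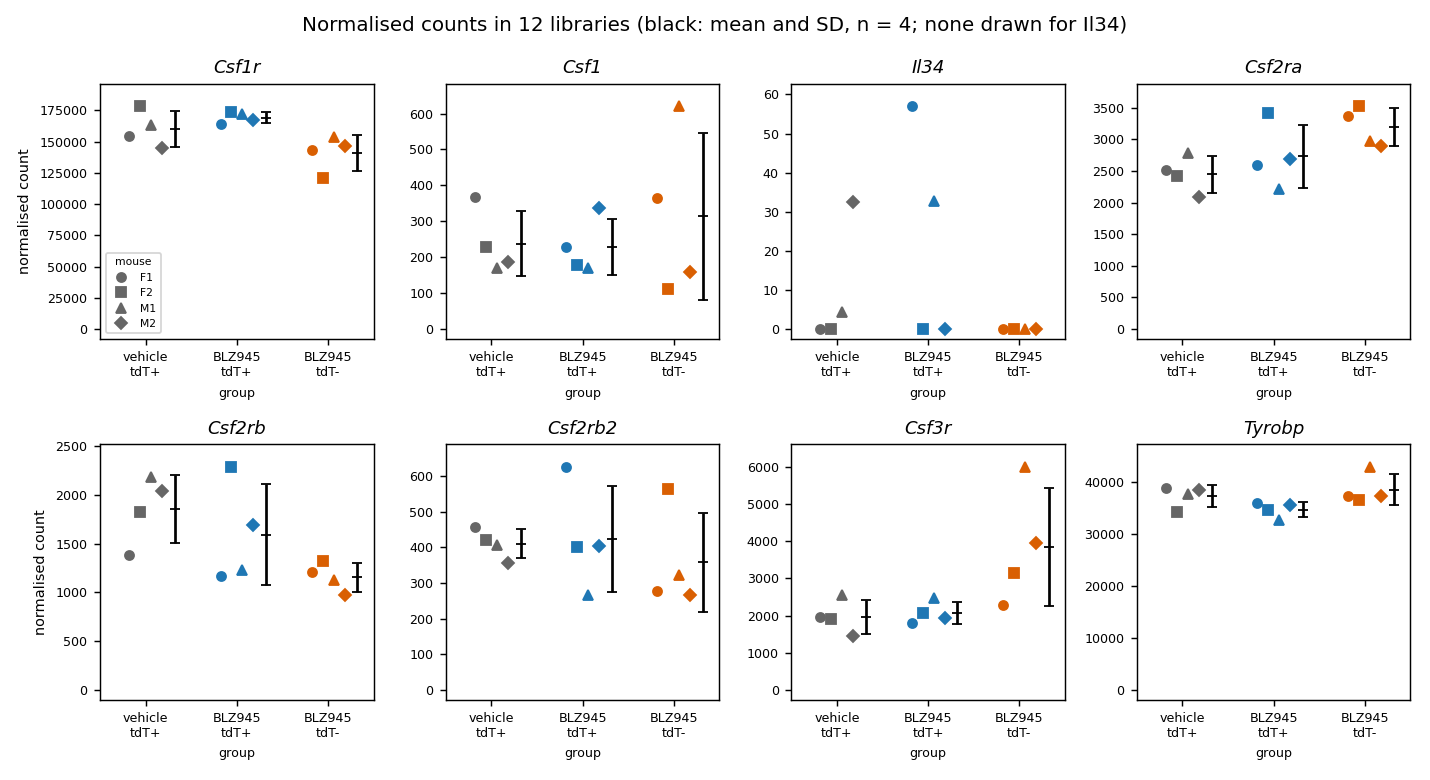
Normalised counts (vertical axes, each starting at about 0) of the 8 members in 12 libraries. Symbols are the mouse labels, colours the 3 groups, and black marks the mean and SD over 4 libraries (none for Il34, which is at 0 in 8 libraries). Csf3r is highest in the tdT- library M1, at 6009, and Csf1r lowest in the tdT- library F2, at 120577.

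Setting tdT- against tdT+ cells from the same BLZ945 mice asks whether macrophages with and without the lineage label differ in these receptors in 1 brain. Csf1r fell and Csf3r rose in tdT- cells, while Csf1, Csf2ra, Csf2rb, Csf2rb2 and Tyrobp did not pass the test. DESeq2 thus called 2 of 7 members tested at the threshold of 0.05 on the P value adjusted after Benjamini-Hochberg, 1 lower and 1 higher, in a comparison in which 6.32% of all tested genes were called, 2.85% as higher and 3.48% as lower. Neither met the rule for differentially expressed genes (DEGs), which also asks for a shrunken change of 1 or more on the log2 scale in either direction and was met by 2.25% of genes. The median log2 fold change was 0.15 over the 7 members and 0.0036 over all genes. By the edgeR quasi-likelihood test no member was called, and 2 had an unadjusted P under 0.05.

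Csf1r (GRCm39, chr18:61233670-61265221, plus strand) was abundant in every library. Its normalised counts in vehicle tdT+ cells were 154524, 178628, 163409 and 144834 in mice F1, F2, M1 and M2. In BLZ945 tdT+ cells they were 164298, 173777, 171790 and 167005, and in tdT- cells 143530, 120577, 153618 and 146627. All 4 tdT- libraries lay below all 4 BLZ945 tdT+ libraries, while the vehicle libraries overlapped both; such a separation in either direction was seen for 9.35% of all tested genes. The log2 fold change was -0.26 ± 0.08 (SE), or 0.834-fold (95% interval, 0.743 to 0.936), with an adjusted P of 0.0343 in DESeq2 and 0.123 in edgeR. Within each of the 4 mice tdT- cells had less Csf1r than tdT+ cells, by log2 ratios between -0.53 in F2 and -0.16 in M1. Without the tdT- library F2, which holds the neutrophil transcripts, the log2 fold change was -0.20 ± 0.07 and the adjusted P 0.0646, and the call was also lost when any other single library but the tdT- library M1 was left out (adjusted P between 0.0518 and 0.110 over the 7 libraries). Exons of Hmgxb3 overlap 873 bases of Csf1r exons (15.1%) on the opposite strand, and strand was not used. Hmgxb3 itself was counted at no more than 0.375% of Csf1r in any library. Whether reads in the shared bases were left uncounted for Csf1r was not examined.

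Csf3r (chr4:125918343-125938233, plus strand) gave the largest difference among the members tested. Normalised counts were 1957, 1906, 2543 and 1448 in vehicle tdT+ cells of mice F1, F2, M1 and M2. They were 1799, 2079, 2462 and 1934 in BLZ945 tdT+ cells and 2286, 3153, 6009 and 3955 in tdT- cells. The tdT- library F1 lay within the range of both tdT+ groups and the other tdT- libraries above it. The log2 fold change was 0.90 ± 0.27, or 1.86-fold (95% interval, 1.29 to 2.68), with an adjusted P of 0.0176 in DESeq2 and 0.107 in edgeR. Csf3r was higher in tdT- than in tdT+ cells of all 4 mice, by log2 ratios between 0.35 and 1.29. Without the tdT- library M1 the log2 fold change was 0.60 ± 0.24 and the adjusted P 0.118, and without the tdT+ library F1 or M2 the adjusted P was 0.0748 and 0.0646.

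Microglia markers moved with Csf3r across the tdT- libraries. Their sum was 275502 in M1 and 185398 in M2, where Csf3r was highest and second highest, and 120633 and 128880 in F1 and F2. P2ry12, a purinergic receptor of microglia, had 42296, 44758, 106728 and 67976 normalised counts in tdT- cells of F1, F2, M1 and M2 and between 13222 and 23924 in tdT+ libraries. P2ry12 was also among the 3 genes closest to Csf3r in pattern by the fixed rule (Pearson's r = 0.91 over 12 libraries), after Smap2 (0.95) and Samsn1 (0.92). These libraries share their groups, so such values describe likeness only. The tdT- library F2, which held nearly all neutrophil marker counts, had 3153 normalised counts of Csf3r. The tdT- library F1, close to F2 in microglia marker sum, had 2286, M1 had 6009 and M2 had 3955. Without F2 the log2 fold change of Csf3r was 0.98 ± 0.29 (adjusted P = 0.0147). The parts of microglia and of neutrophil transcripts in the Csf3r difference were not tested.

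**Figure D2:**
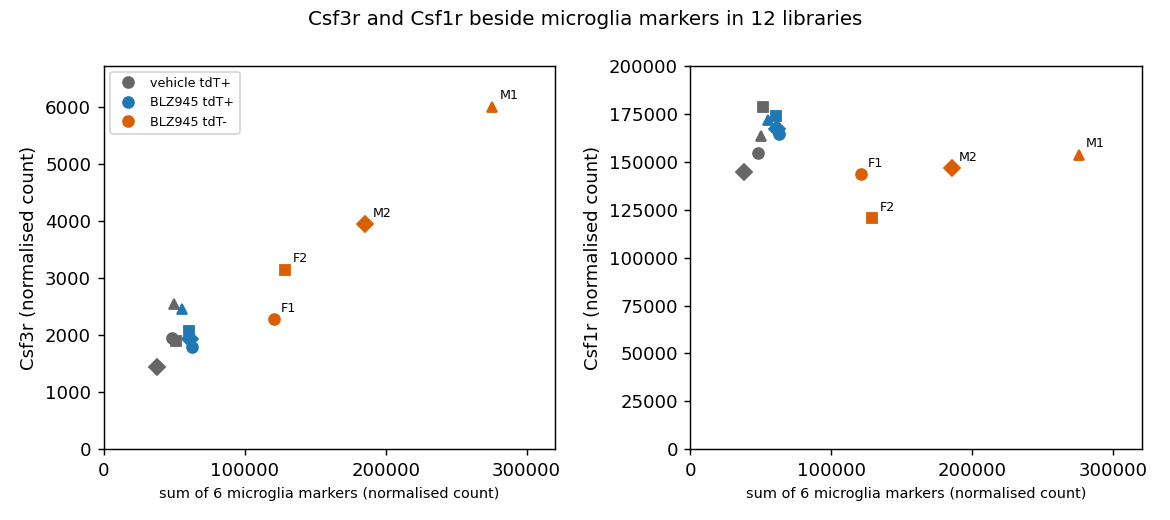
Normalised count of Csf3r (left) and Csf1r (right) against the summed normalised count of 6 microglia markers, 1 point per library, with tdT- libraries labelled by mouse. The tdT- libraries lie at marker sums of 120633 or more and all tdT+ libraries at 62425 or less; over all 12 libraries Csf3r is highest in the tdT- library M1, where the sum is highest, and Csf1r in the vehicle library F2, at 178628. Among the 4 tdT- libraries both genes are highest in M1 and second highest in M2 (Csf1r at 153618 and 146627).

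Tyrobp (chr7:30113185-30117010, plus strand) differed little. It had 38901, 34303, 37767 and 38467 normalised counts in vehicle tdT+, 36001, 34567, 32706 and 35657 in BLZ945 tdT+ and 37284, 36568, 43000 and 37288 in tdT- libraries of F1, F2, M1 and M2. All tdT- libraries lay above all BLZ945 tdT+ libraries, but the log2 fold change was 0.15 ± 0.07 with an adjusted P of 0.266. With Csf1r, 2 of 7 members had groups that did not overlap.

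The GM-CSF receptor chains gave values in opposite directions that did not pass the test in this comparison. Csf2ra, the alpha chain (chr19:61212395-61216867, minus strand), had a log2 fold change of 0.23 ± 0.16 (adjusted P = 0.591). Csf2rb, the common beta chain (chr15:78209952-78238047, plus strand), had -0.46 ± 0.25 (adjusted P = 0.348). Csf2rb2 (chr15:78166707-78189921, minus strand), the beta chain that works with the IL-3 receptor, had -0.25 ± 0.36 (adjusted P = 0.882; 95% interval, -0.96 to 0.46).

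The ligands were low in these cells, and their levels were spread widely over libraries. Csf1 (chr3:107648364-107667785, minus strand) had between 169 and 367 normalised counts in vehicle tdT+, between 170 and 337 in BLZ945 tdT+ and 366, 110, 621 and 159 in tdT- libraries F1, F2, M1 and M2. Its log2 fold change of 0.46 ± 0.56 (adjusted P = 0.840) has a 95% interval from -0.64 to 1.56, so that differences of this size could not be detected. Il34 (chr8:111468461-111532556, minus strand) was counted in 4 tdT+ libraries, at 5 and 36 reads in vehicle M1 and M2 and at 62 and 32 reads in BLZ945 F1 and M1. It had 0 counts in the other 4 tdT+ libraries and in all 4 tdT- libraries, which allows up to 3 counts in each. Il34 was not tested, and no difference can be read from a gene at 0 in libraries of every group.

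**Figure D3:**
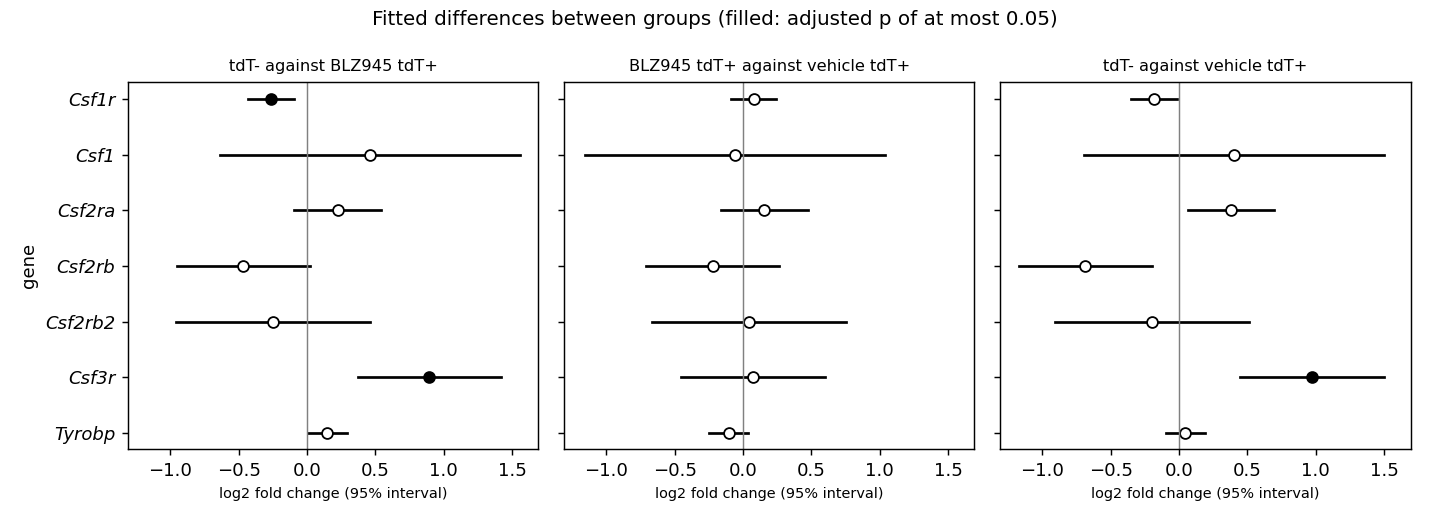
Log2 fold change of the 7 members tested (horizontal axes) with 95% intervals in the 3 comparisons; filled points passed the threshold of 0.05 in DESeq2. Csf1r and Csf3r are filled for tdT- against BLZ945 tdT+ cells, Csf3r for tdT- against vehicle tdT+ cells, and no point is filled for BLZ945 tdT+ against vehicle tdT+ cells.

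The comparison of tdT+ cells after BLZ945 with those after vehicle asks whether labelled sdCAMs that lived through inhibition of the receptor differ from undisturbed ones. None of the 7 members was called by DESeq2 or by edgeR, and none had an unadjusted P under 0.05 by either, in a comparison in which 0.955% of all genes were called, 0.481% as higher and 0.474% as lower. DEGs made up 0.168% and genes with separate groups 6.72%, with no member among them. Log2 fold changes lay between -0.22 for Csf2rb and 0.16 for Csf2ra. Csf1r itself had 0.08 ± 0.08, with a 95% interval from 0.940-fold to 1.18-fold, and Tyrobp -0.11 ± 0.07 (adjusted P = 0.890). For Csf3r the interval ran from 0.731-fold to 1.52-fold, for Csf2ra from 0.895-fold to 1.39-fold and for Csf2rb on the log2 scale from -0.71 to 0.26. The intervals of Csf1 and Csf2rb2 were wider.

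Unlabelled cells were then set against undisturbed sdCAMs, tdT- against vehicle tdT+. It uses the same tdT- libraries as the first comparison, so it is no second test of them. Csf3r was the only 1 of 7 members called, in a comparison in which 6.76% of genes were called, 3.27% as higher and 3.49% as lower; it was no DEG, as 2.55% of genes were. Its log2 fold change was 0.97 ± 0.27, or 1.96-fold (95% interval, 1.36 to 2.82), with an adjusted P of 0.00756 in DESeq2 and 0.0751 in edgeR. Without the tdT- library M1, the highest in microglia markers, it was 0.67 ± 0.24 (adjusted P = 0.0628). Csf1r had -0.18 ± 0.08 (adjusted P = 0.222), and its groups overlapped.

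Csf2ra and Csf2rb gave values in opposite directions against vehicle that did not pass the test. Csf2ra had 2515, 2418, 2792 and 2082 normalised counts in vehicle tdT+, 2599, 3422, 2217 and 2691 in BLZ945 tdT+ and 3374, 3530, 2970 and 2903 in tdT- libraries of F1, F2, M1 and M2. Csf2rb had 1381, 1831, 2182 and 2043 in vehicle tdT+, 1168, 2292, 1225 and 1691 in BLZ945 tdT+ and 1212, 1318, 1124 and 969 in tdT- libraries. All tdT- libraries lay above vehicle for Csf2ra and below it for Csf2rb, which makes 2 of 7 members with separate groups, against 9.70% of all genes. The log2 fold change was 0.38 ± 0.16 for Csf2ra (adjusted P = 0.164) and -0.69 ± 0.25 for Csf2rb (adjusted P = 0.0731). That of Csf2rb passed in 3 other settings: with only the 8 libraries compared (adjusted P = 0.0304), with no filter on low counts (0.0489) and without the vehicle library F1 (0.0334). The ratio of Csf2ra to Csf2rb in RPKM, chosen after the values were seen, was 3.45 ± 0.85 in vehicle tdT+, 4.51 ± 0.82 in BLZ945 tdT+ and 7.03 ± 0.40 in tdT- cells, ranging from 6.70 to 7.60 over tdT- libraries and from 2.58 to 5.64 over tdT+ libraries.

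Csf2rb and Csf2rb2 are near copies, and reads that fit both were not counted. Of the windows of 50 bases along their longest transcripts in the GENCODE M21 annotation, 18.4% in Csf2rb and 19.0% in Csf2rb2 also occur in the other gene, and of windows of 75 bases 10.7% and 11.1%. The methods of the study describe short single reads on another sequencer than the labels of these libraries name, so the read length that applies here is uncertain and the share of reads lost to both genes is not known. Csf2rb2 had 457, 422, 408 and 356 normalised counts in vehicle tdT+, 627, 400, 267 and 404 in BLZ945 tdT+ and 279, 563, 323 and 266 in tdT- libraries, so that all 3 groups overlapped. Csf2rb made up 74.2 ± 5.68% of the RPKM of both in vehicle tdT+, 70.5 ± 10.7% in BLZ945 tdT+ and 68.5 ± 5.76% in tdT- cells.

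The partners of these receptors were then described in 8 lists of 99 genes in all, of which 87 passed the filter. Of these, 12 were called in tdT- against BLZ945 tdT+ cells (8 higher, 4 lower), 1 in BLZ945 tdT+ against vehicle tdT+ cells and 14 in tdT- against vehicle tdT+ cells (10 higher, 4 lower). As shares these are 13.8%, 1.15% and 16.1%, against 6.32%, 0.955% and 6.76% of all genes. The median log2 fold change over the 87 genes was 0.12, 0.04 and 0.16, against 0.0036, 0.03 and 0.03 over all genes. The lists were chosen with earlier results of these data known and include the microglia marker Siglech, so these shares and medians are descriptions and no test.

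Among the 27 CSF1R signalling genes, Pik3cg, which encodes the catalytic gamma subunit of phosphoinositide 3-kinase, was the only gene called in tdT- against BLZ945 tdT+ cells. Its normalised count was 7866 ± 1355 in tdT+ and 4169 ± 665 in tdT- cells (-0.92 ± 0.19 on the log2 scale, adjusted P = 7.58e-05 in DESeq2 and 0.0156 in edgeR). Against vehicle, 4 of the 27 rose and Pik3cg fell (-0.60 ± 0.19, adjusted P = 0.0263). Those that rose included the Src-family kinase genes Lyn (0.49 ± 0.12, adjusted P = 0.00149), from 9841 ± 1190 to 13794 ± 1741 counts, and Fyn (1.67 ± 0.52, adjusted P = 0.0233). In edgeR the adjusted P of Pik3cg, Lyn and Fyn against vehicle was 0.0981, 0.0554 and 0.115. The median of the list was 0.09 in both comparisons.

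Of 6 regulators of Csf1r transcription, Spi1 and Irf8, both transcription factor genes of the macrophage lineage, rose in tdT- against BLZ945 tdT+ cells, in which Csf1r fell. Spi1 had 8570, 8265, 9750 and 9528 normalised counts in tdT- libraries and 6648, 8046, 6680 and 7538 in BLZ945 tdT+ libraries of F1, F2, M1 and M2, with no overlap. Its log2 fold change was 0.32 ± 0.09 (adjusted P = 0.0144 in DESeq2, 0.140 in edgeR and 0.104 with the mouse as a block). Irf8 rose by 0.56 ± 0.15 (adjusted P = 0.00631, 0.0769 and 0.0553 in that order) and, against vehicle, by 0.50 ± 0.15 (adjusted P = 0.0220 in DESeq2 and 0.131 in edgeR). Both were highest in the tdT- library M1, as the microglia markers were, and the part of microglia transcripts in these differences was not tested.

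Of 14 JAK-STAT genes of GM-CSF and G-CSF signalling, only Cish, which encodes a cytokine-induced inhibitor of that pathway, was called, as lower in tdT- cells against either tdT+ group. It was scarce, with 0, 0, 3.2 and 0 normalised counts in tdT- libraries of F1, F2, M1 and M2, between 19.5 and 98.6 in BLZ945 tdT+ libraries and between 0 and 128 in vehicle libraries. The adjusted P was 0.0124 and 0.0204 in DESeq2 and 0.151 and 0.165 in edgeR, and no fold is given because the tdT- counts lie at or near the floor. The only gene tested of 6 GM-CSF family ligands and alpha chains was Il3ra, the alpha chain of the IL-3 receptor (log2 fold change -0.43 ± 0.33, adjusted P = 0.642); Csf2, Csf3, Il3, Il5 and Il5ra did not pass the filter. Of 6 other receptors of IL-34 and kinases related to CSF1R, 3 passed the filter. Kit and Flt3 were not called in any comparison, and Ptprz1 got no adjusted P from DESeq2.

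The next list held receptors that pair with TYROBP and its homologous adaptors Fcer1g and Hcst. Of 11 genes tested, 3 rose in tdT- against BLZ945 tdT+ cells, none fell and 8 did not pass the test. The median log2 fold change over the 11 genes was 1.48, the value of Siglech, against 0.0036 over all genes. The genes above it, Sirpb1a, Sirpb1b, Sirpb1c, Cd300lb and Pilrb1, were scarce, with means between 29.5 and 89.5 normalised counts in BLZ945 tdT+ cells. Below it lay Trem2 (0.80), Clec5a (0.51), Hcst (0.23), Fcer1g (0.05) and Cd300ld (-0.17). Siglech, a sialic acid-binding receptor, had 11120, 12307, 21250 and 15074 normalised counts in tdT- and 5652, 6286, 4448 and 5017 in BLZ945 tdT+ libraries of F1, F2, M1 and M2 (1.48 ± 0.21, adjusted P = 3.50e-10 in DESeq2 and 0.00225 in edgeR). Trem2, a lipid-sensing receptor, had 20100, 16991, 29590 and 23406 against 14237, 13587, 12179 and 11598 (0.80 ± 0.15, adjusted P = 5.45e-06 and 0.0123). Neither gene had overlapping groups. Sirpb1c rose from 29.5 ± 20.3 to 192 ± 107 counts (adjusted P = 0.0203 and 0.161), and near-identical family members make its counts uncertain. Siglech is 1 of the 6 microglia markers, and both Siglech and Trem2 were highest in the tdT- library M1, then M2, as the marker sum was; the part of microglia transcripts was not tested. Against vehicle, Siglech (2.08 ± 0.21, adjusted P = 1.92e-20 in DESeq2 and 0.000202 in edgeR) and Trem2 (0.97 ± 0.15, adjusted P = 9.78e-09 and 0.00322) were the 2 genes called, both higher.

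Of 11 ITAM signalling genes, Lat2, an adaptor that acts downstream of SYK, was the only gene called in either comparison of tdT- cells. It had 2088, 1826, 2139 and 1967 normalised counts in tdT- libraries of F1, F2, M1 and M2, between 380 and 629 in BLZ945 tdT+ and between 275 and 657 in vehicle libraries. The log2 fold change was 2.01 ± 0.27 against BLZ945 tdT+ cells (adjusted P = 3.88e-11 in DESeq2 and 0.00115 in edgeR) and 2.12 ± 0.27 against vehicle (1.48e-12 and 0.000545). Lat2 was nearly level over the tdT- libraries, whose microglia marker sum ran from 120633 to 275502. The part of microglia transcripts in the Lat2 difference was not tested.

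Of 17 other class I and class II cytokine receptor chains tested, 2 rose and 2 fell in tdT- against BLZ945 tdT+ cells. Epor, the erythropoietin receptor, fell from 1761 ± 267 to 593 ± 81.9 counts (-1.57 ± 0.22, adjusted P = 1.48e-10 in DESeq2 and 0.00102 in edgeR) and was also lower than in vehicle cells (-1.46 ± 0.22, adjusted P = 3.01e-09 and 0.000959). Il2rg, the gamma chain shared by several interleukin receptors, rose from 911 ± 338 to 2115 ± 418 (1.21 ± 0.31, adjusted P = 0.00279 and 0.0472). Il27ra, a chain of the IL-27 receptor, was also called, with 0, 68.7, 265 and 1.9 normalised counts in tdT- libraries of F1, F2, M1 and M2 and 0 in all BLZ945 tdT+ libraries, so that 2 libraries carried the call (adjusted P = 0.00374 in DESeq2 and 0.135 in edgeR). Lifr, the receptor of leukaemia inhibitory factor, was the other gene that fell (-0.74 ± 0.21, adjusted P = 0.0121 in DESeq2 and 0.0744 in edgeR).

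Il10ra, the ligand-binding chain of the IL-10 receptor, was the only gene of the 8 lists called between tdT+ cells of BLZ945 and vehicle mice. It had 4193, 4072, 3647 and 4484 normalised counts in vehicle tdT+ libraries of F1, F2, M1 and M2, 6575, 5426, 6163 and 6471 in BLZ945 tdT+ and 6018, 6478, 8229 and 8346 in tdT- libraries. Both BLZ945 groups lay above all vehicle libraries. The log2 fold change was 0.59 ± 0.13 for tdT+ cells (adjusted P = 0.00245 in DESeq2 and 0.229 in edgeR) and 0.83 ± 0.13 for tdT- cells (5.81e-08 and 0.00316). Ifngr1, a chain of the interferon gamma receptor, was higher in tdT- than in vehicle cells (0.43 ± 0.10, adjusted P = 0.000842 and 0.0563).

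**Figure D4:**
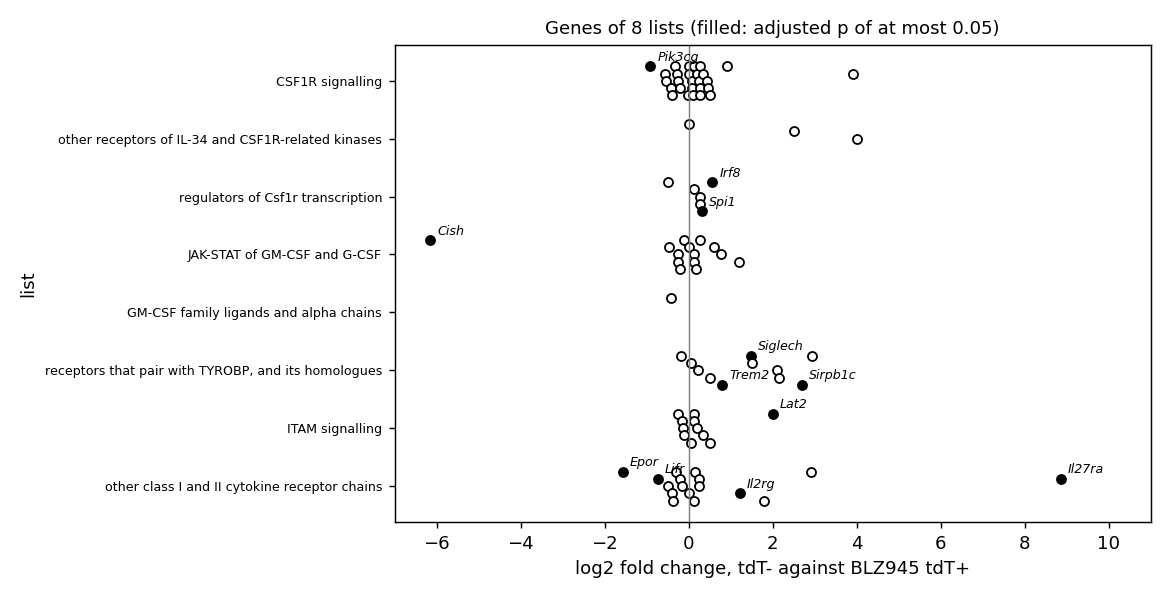
Log2 fold change in tdT- against BLZ945 tdT+ cells of each tested gene of the 8 lists (rows); filled points passed the threshold of 0.05 in DESeq2 and carry their names. Vertical offsets within a row carry no meaning. Cish and Il27ra, at the ends of the axis, have counts at or near 0 in 1 of the groups. Lat2, Siglech, Trem2, Epor and Pik3cg had counts well above 0 in every library.

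Genes nearest in pattern to the other members were named by the same rule, over 12 libraries and among the 9310 genes whose mean reached 100 normalised counts. Nearest to Csf1r were Mtrf1 (r = 0.94), Cacfd1 (0.92) and C5ar1 (0.92), the last being the complement C5a receptor. Nearest to Tyrobp were Ptms (0.97), Gins4 (0.91) and Cox17 (0.88). Nearest to Csf2ra were Dtx4 (0.89), Slamf9 (0.88) and Mcub (0.87), and to Csf2rb Zfp710 (0.87), Crebrf (0.86) and Nenf (0.86). For Csf1 they were Slx1b (0.92), Thumpd1 (0.83) and Jkamp (0.82), and for Csf2rb2 Casd1 (0.90), Naa40 (0.84) and Fbxo5 (0.82). The highest values among 9310 genes are high by selection.

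The difference between mice labelled F and M in each effect was tested as an interaction in edgeR, and no gene was called in any of the 3 comparisons, where 984, 449 and 1103 genes had an unadjusted P under 0.05. For Csf3r the effect in tdT- against BLZ945 tdT+ cells was larger in M by 0.69 on the log2 scale (adjusted P = 0.815) and against vehicle by 0.82 (adjusted P = 0.679), with 2 mice of each letter per group.

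**Figure D5:**
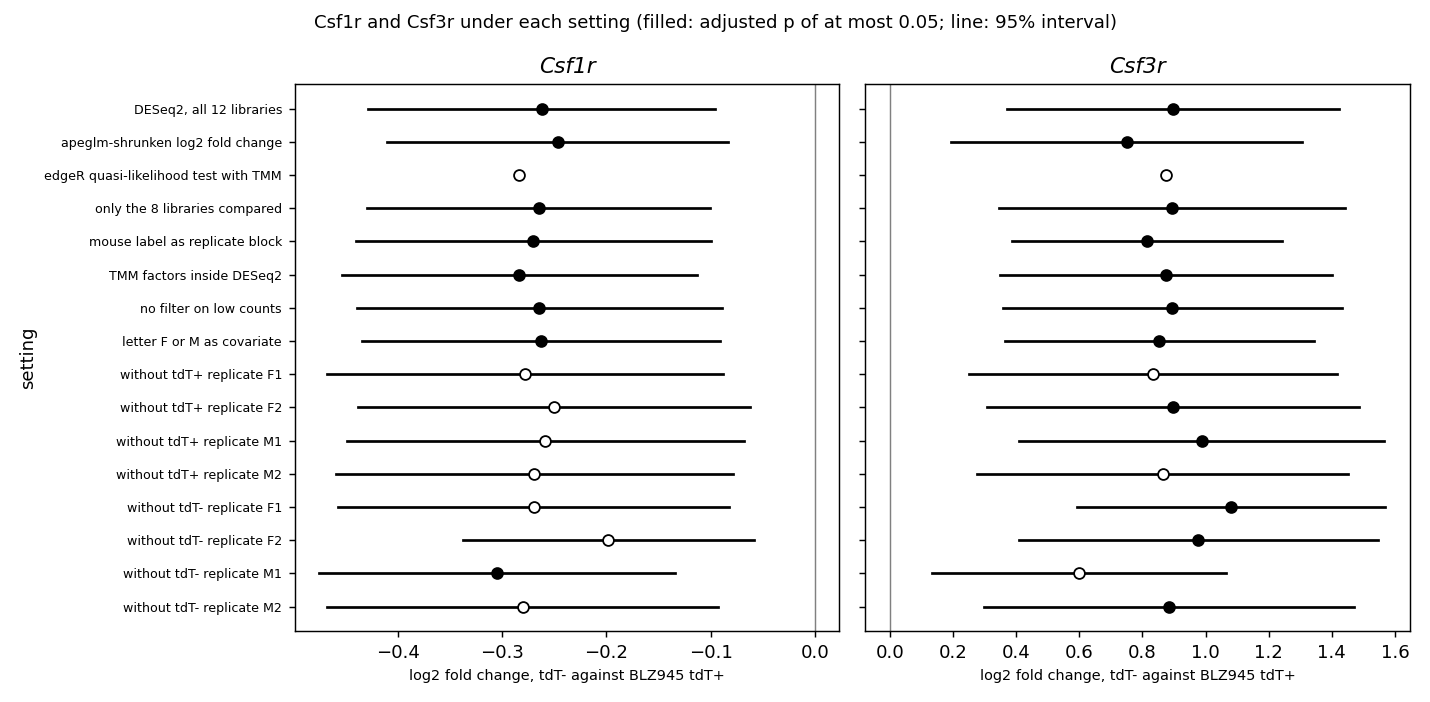
Log2 fold change of Csf1r (left) and Csf3r (right) in tdT- against BLZ945 tdT+ cells under each setting (rows), with 95% intervals except for edgeR, which gives no standard error here; filled points passed the threshold of 0.05 on the adjusted P. Direction was the same in all rows, Csf1r between -0.30 and -0.20 and Csf3r between 0.60 and 1.08, whereas the call was not.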

How the data were processed

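Bulk RNA-seq counts of 12 libraries of CD206+ sdCAMs were used, 4 in each of 3 groups set by the sample titles. The authors deposited raw counts of reads per gene, obtained per the file headers with featureCounts 2.0.6 from exons of GENCODE M33 (GRCm39) plus a tdTomato entry, without strand and without multi-mapping reads; the submitters' processing notes also name STAR 2.7.11a. Per the labels, RNA was amplified with a SMART-Seq protocol, so counts are not independent molecules, and floors (3 counts) cover counting error only. A vehicle column carrying the library number of M2 but the label M1 was assigned by its number; 0 columns were left over. Depth lay between 19969308 and 23395058 counts per library.

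Analysis was run in R 4.3.3. A gene was removed if 75% or more of the libraries held under 10 counts. DESeq2 1.42.0 was fitted to all 12 libraries (group as the only term, two-sided Wald test, Benjamini-Hochberg adjustment over 13724 genes, calls at an adjusted P of at most 0.05). Printed log2 fold changes are unshrunken ± SE, with 95% Wald intervals; the DEG rule of the study adds a change of 1 or more on the log2 scale after shrinkage with apeglm 1.24.0. The script was tested on simulated data, in which DESeq2 made more false calls than edgeR 4.0.16. Adjusted P values of edgeR therefore stand beside the calls of members and list genes, while the cell type marker sets were called by DESeq2 alone. Normalised counts are counts divided by median-of-ratios size factors, and RPKM was computed from counts, library totals and the deposited exon lengths. Values are mean ± SD over 4 libraries unless marked SE.

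The members and lists were chosen with earlier results of these data known. Named genes were the 8 members, up to 3 called genes with the smallest adjusted P per list and comparison, the 3 genes of highest Pearson correlation of log2(normalised count + 1) with each member of mean at least 100, genes overlapping a member, and markers of other cell types (2 marker genes are not reported here); Lifr was named after its values were seen. The pairing of tdT+ and tdT- libraries comes from the mouse labels. Deviations of same-mouse libraries from their group means correlated across genes by between -0.0046 and 0.035. No replicate pair was close to sampling noise (smallest chi-square per degree of freedom of 18 pairs, 48.4). The labels F1, F2, M1 and M2 mark animals by name only, so P values measure the spread between these libraries. Alternatives were edgeR with TMM, TMM factors inside DESeq2, no filter, shrunken fold changes, only the libraries compared, the mouse label as a block, the letter F or M as a covariate, and leaving out each library.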

Additional observations from a re-analysis of the deposited data

Results flagged for a closer look

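Of the 23 sets of 4 libraries with any spread (8 members in 3 groups), 2 held a library far from the other 3, where chance gives about 1 in 20. Tyrobp in the tdT- library M1, at 43000 normalised counts against between 36568 and 37288 in the others, had a gap of 0.888 of the group's range, above Dixon's critical value for 4 libraries. That library is also the highest in Csf3r, Csf1 and microglia markers. Without it, Tyrobp in tdT- against vehicle tdT+ cells changed from 0.04 to -0.02 on the log2 scale, and neither value passed the test. Il34 in the vehicle library M2, at 32.4 normalised counts (36 reads) against between 0 and 4.3 in the others, had a gap of 0.867 of the range.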

How the results depend on the processing

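The number of members called depended on the test and on single libraries. For tdT- against BLZ945 tdT+ cells it was 2, became 0 in edgeR with TMM and 0 under the DEG rule with apeglm-shrunken fold changes, and lay between 0 and 1 when 1 library was left out. For tdT- against vehicle tdT+ cells it was 1, became 0 in edgeR and 0 under the DEG rule, was 2 with only the 8 libraries compared and 2 with no filter on low counts, and lay between 0 and 2 when 1 library was left out. The 0 for BLZ945 tdT+ against vehicle tdT+ cells was the same in every setting run. The mouse label as a replicate block changed no member's call. Under it the adjusted P in tdT- against BLZ945 tdT+ cells was 0.0289 for Csf1r and 0.00463 for Csf3r; between BLZ945 tdT+ and vehicle tdT+ cells, where the label is no pairing by animal, it turned Csf2rb2 from 0.047 to -0.0166, and calls over all genes went from 131 to 367, beside 325 with the same 8 libraries and no block, 256 with no filter and 9 in edgeR. Over all genes edgeR called 377 genes where DESeq2 called 868 in tdT- against BLZ945 tdT+ cells, and 446 where DESeq2 called 928 in tdT- against vehicle cells.

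Of 315 single-member values under other settings, 283 kept direction and side of the threshold, 14 lost a call at the threshold on the adjusted P, 3 lost it under the DEG rule alone, 3 gained one and 12 changed sign, none of the last with a call. When 1 library was left out, signs turned for Csf1 (from -0.11 to 0.74 in tdT- against BLZ945 tdT+, -0.17 to 0.69 in tdT- against vehicle and -0.31 to 0.23 in BLZ945 tdT+ against vehicle), Csf2rb2 (-0.56 to 0.0003022 in tdT- against BLZ945 tdT+ and -0.20 to 0.22 in BLZ945 tdT+ against vehicle), Csf3r (-0.0473 to 0.22 in BLZ945 tdT+ against vehicle) and Tyrobp (-0.0155 to 0.0648 in tdT- against vehicle). The cause of these changes was not tested. With 4 libraries a group, depth did not limit Csf1r or Tyrobp, but Csf1, Csf2rb2 and Il34 are too low and too variable for moderate differences to be detected.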
